A study of Paraphaeosphaeria sporulosa with 23 samples.

Results

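Of 14844 genes with a RefSeq locus tag in the fungus Paraphaeosphaeria sporulosa, 119 (0.802%) were lower with selenite than without it after 1 day and higher with selenite than without it after 6 days. They were chosen by those changes. Each library's CPM, a gene's reads scaled to a common library total, was divided by the library's median ratio to the genes' geometric means, and the result is called scaled CPM here. A gene was taken when the log2 of its group mean plus 0.5 was lower by at least 1 with selenite at day 1 and higher by at least 1 with selenite at day 6, which is close to a 2-fold change for all but the lowest genes. Each change was common by itself, as 2529 genes (17.0%) met the condition of day 1 and 2495 (16.8%) that of day 6. The reverse pattern, raised at day 1 and lowered at day 6, held 199 genes. All 119 members are annotated as protein coding in the RefSeq assembly Parsp1, and all passed the filter on low reads.

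The cultures were strain AP3s5-JAC2a, sampled as whole organism, and the 23 libraries of polyA RNA form 5 groups. Controls without selenite were sampled at day 0 (3 libraries), day 1 (6) and day 6 (5), and cultures with 0.1 mM sodium selenite at day 1 (5) and day 6 (4). All groups share the same start: mycelium of a 14-day preculture was washed, blended and grown unshaken in the dark in a yeast extract medium for 18 days, and selenite was added at the end of that time, which is day 0. There was no selenite group at day 0, so both treatments are set against the same 3 untreated libraries. The cultures were therefore standing and already grown, and a control of day 6 is an older culture than one of day 0. All libraries carry the same batch label. Whether each replicate was its own flask is not said in the labels, so the p-values cover the spread among the libraries at hand, which may partly be technical. A library of a whole culture averages over all its hyphae, so fewer cells of a kind and less RNA per cell cannot be told apart.

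Selenite is a toxic oxyanion of selenium that reacts inside cells with glutathione and other thiols, and fungi that tolerate it reduce it to elemental selenium or to organic selenium compounds. The reaction with thiols can form reactive oxygen species, and sulfur metabolism and redox defence are the functions most often linked to selenite in fungi. A standing culture also changes without any treatment, as nutrients are used and growth slows, and so a gene's level with selenite is read here beside the controls at each time and beside the level at the start. The files and the RefSeq table give the members locus tags, and the authors' deposited time-course table pairs 58 of them with UniProt identifiers. None of these carries a product name, so no function is given to any member and no pathway list was counted.

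The values that chose the members are given as a description. At day 1 the log2 change of the members ran from −3.95 to −1.0, with a median of −1.49 and quartiles of −1.86 and −1.23. At day 6 it ran from 1.0 to 4.90, with a median of 1.33 and quartiles of 1.17 and 1.80. Over all 14844 genes the medians, which the scaling holds near 0, were 0.06 and 0.04. Most members lay near the limits of the rule on at least 1 day, since 21 changed by at least 1.5 and 7 by at least 2 on both days. At day 1 the members just inside the limit were CC84DRAFT_1107989 (−1.0043) and CC84DRAFT_1090414 (−1.0046), and the genes just outside it were CC84DRAFT_1161524 (−0.9922) and CC84DRAFT_1202002 (−0.9887). At day 6 the nearest members were CC84DRAFT_1191832 (1.0026) and CC84DRAFT_1262436 (1.0067), and the nearest genes outside were CC84DRAFT_1150342 (0.9985) and CC84DRAFT_1063988 (0.9952).

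**Figure D1:**
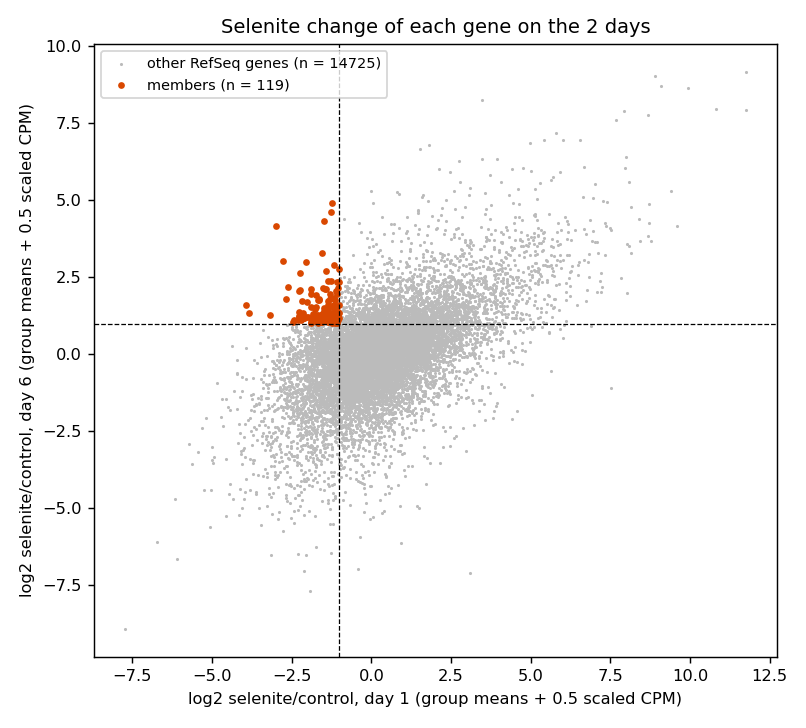
Log2 change with selenite at day 1 (horizontal axis) and at day 6 (vertical axis) for all RefSeq genes, from group means plus 0.5 scaled CPM, with the 119 members in orange and the limits of the rule as dashed lines. Members fill the upper left corner, and most lie close to a limit: 21 are past 1.5 on both days.

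Membership rested on single libraries for over 1 member of every 2. Leaving out each library used by the rule in turn kept 52 members in every case and lost 67 in at least 1. Without replicate 4 of selenite day 6 the rule gave 89 genes, 83 of them among the 119, and without replicate 1 of the same group it gave 162, of which 107 were among the 119. Taking the median of each group in place of its mean gave 164 genes, with 96 of the 119. With library size alone as the scaling, the rule gave 191 genes and shared 102.

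Expressed as levels, the median over members was moderate in untreated cultures at days 0 and 1, and low with selenite at day 1 and without it at day 6. With selenite at day 6 it was above that of day 0. These medians are over genes and not the course of a single member, and parts of the members with other courses are given below. The median over members of the group mean was 56.6 scaled CPM at day 0, 65.0 in controls and 24.0 with selenite at day 1, and 26.0 in controls and 84.2 with selenite at day 6. The members differ widely in abundance: 43 had a mean of at least 100 scaled CPM over all libraries and 18 a mean below 5, and 5 had no read in any library of day 0. Per kilobase of exon, the member with the highest mean level was CC84DRAFT_635293, at 2017 scaled CPM per kilobase. Next came CC84DRAFT_1256259 at 743, CC84DRAFT_238584 at 727 and CC84DRAFT_1166345 at 719.6 scaled CPM per kilobase. These are means over 23 libraries in groups of unequal size, and CC84DRAFT_238584 owes its place to replicates 2 and 3 of day 0, with 3299 and 3183 scaled CPM.

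As a share of all reads in genes, the 119 members together held 2.84% ± 0.664 at day 0 (SD, n = 3; range 2.07% to 3.26%) and 2.48% ± 0.454 in controls of day 1 (n = 6; 1.69% to 2.92%). Selenite libraries of day 1 held 0.522% ± 0.110 (n = 5; 0.385% to 0.644%). In controls of day 6 the share was 1.5% ± 0.335 (n = 5; 1.09% to 1.80%), and with selenite it was 3.50% ± 1.16 (n = 4; 1.89% to 4.4%). All 5 selenite libraries of day 1 lay below the libraries of every other group, and all 4 of day 6 above the controls of that day. The rule compares group means within each day on scaled levels, so the direction within a day is no result. Among genes other than the 100 with the most reads, the members held 3.55% of reads at day 0, 3.72% in controls and 1.10% with selenite at day 1, and 1.91% in controls and 4.34% with selenite at day 6. The scaling factors that turn CPM into scaled CPM were 0.513 to 0.651 in selenite libraries of day 1 and 1.35 to 1.57 in day 6 controls, and on scaled levels the medians of these groups were the 24.0 and 26.0 given above. Over all reads, the selenite libraries of day 6 and the untreated libraries of days 0 and 1 overlapped.

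Single libraries stood apart in the members' levels. The median member's log2 level, relative to its mean at day 0, was −0.50 in replicate 1 of day 0 and 0.22 and 0.31 in the other 2. Replicate 1 of the day 1 controls had −0.11, and the other 5 had 0.42 to 0.59. Selenite libraries of day 1 lay close together, at −1.20 to −0.91. Among day 6 controls, replicates 1 and 3 had −1.20 and −1.19, and the others −0.66 to −0.47. With selenite at day 6, replicate 1 had −0.28 and the others 0.49 to 0.88. Over the other tested genes the same medians lay between −0.07 and 0.13 in all 23 libraries. The scaling sets the typical gene of each library near a common level, so these values near 0 follow from it and are no result.

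**Figure D2:**
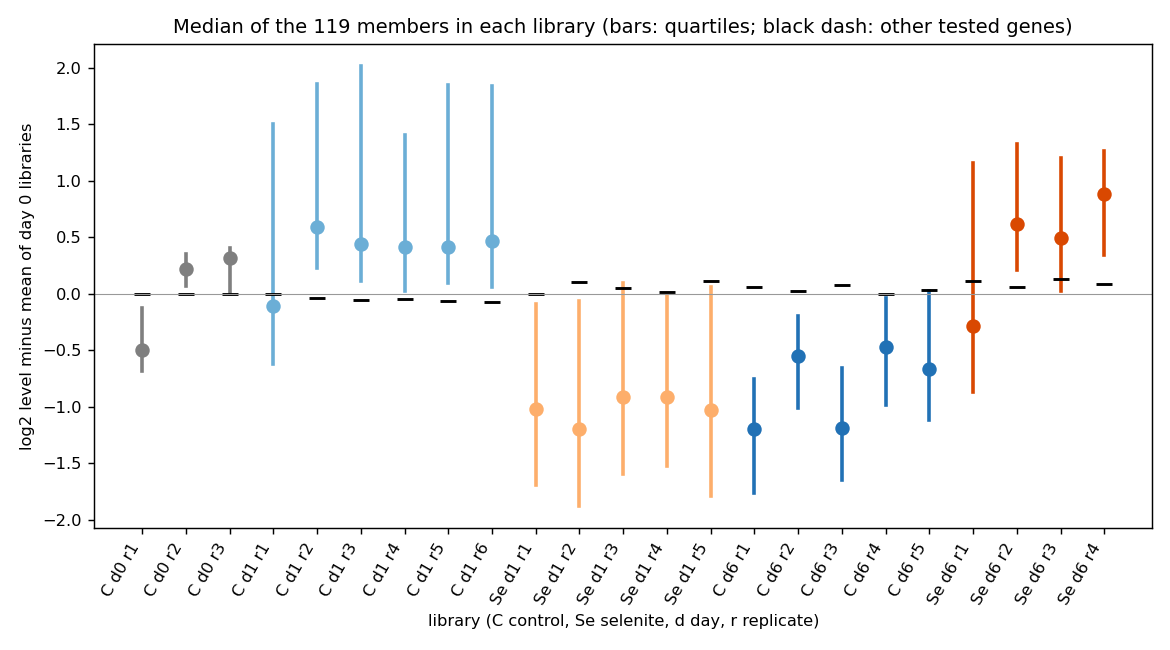
Median over the 119 members of the log2 level relative to day 0 in each library, with a bar for the quartiles, beside the median of the other tested genes. Replicate 1 lies below the rest of its group at day 0, in control day 1 and in selenite day 6. Replicates 1 and 3 do so in control day 6. The medians of the other genes, which the scaling holds near 0, lie between −0.07 and 0.13.

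Each group was then compared with the 3 libraries of day 0, which the rule did not use, by limma across all 13676 tested genes; a gene was called at a Benjamini-Hochberg adjusted p under 0.05. The 4 comparisons share the day 0 libraries, and the other libraries in them chose the members. The counts, and the p-values of single members given below, therefore describe the members and do not test the pattern. In controls at day 1, 42 of the 119 members were called higher than at day 0 (35.3%) and 2 lower (1.68%), where 14.2% and 13.5% of all tested genes were called higher and lower. With selenite at day 1, 9 were called higher (7.56%) and 66 lower (55.5%), beside 32.5% and 27.5% of all genes. In controls at day 6, 2 were called higher (1.68%) and 54 lower (45.4%), beside 10.5% and 10.4%. For selenite at day 6, 39 were called higher (32.8%) and 3 lower (2.52%), beside 22.9% and 18.9%.

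The members' median log2 change from day 0 was 0.38 in controls and −1.01 with selenite at day 1, and −0.79 in controls and 0.45 with selenite at day 6. Over all tested genes it was −0.04, 0.09, 0.08 and 0.12 in that order, and the scaling holds these medians near 0. With the 5 members that had no read at day 0 set at their lower bound, against a floor of 3 reads in each library of day 0, the members' medians were 0.38, −1.02, −0.81 and 0.45. In that calculation 1 of the 5 was left out with selenite at day 1, and 2 in controls at day 6, since their level was under the floor there. At day 6, 97 of 119 members had a fitted value below 0 in the controls, and 96 had one above 0 with selenite. Of these, 54 were called lower in the controls and 39 higher with selenite. The matching shares over all tested genes were not computed. The rule sets selenite above control at day 6, so a split between these groups follows in part from it. As a description, fitted values of controls were mostly below the day 0 mean and those with selenite mostly above it. That mean includes replicate 1 of day 0, where the median member had −0.50, beside 0.22 and 0.31 in replicates 2 and 3.

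The counts moved with single libraries of day 0. The 54 members lower in day 6 controls became 28 without replicate 2 of day 0 and 28 without replicate 3. Without replicates 1 and 3 of the day 6 controls, which stood lowest, the count was 29. The 39 members higher with selenite at day 6 became 25 without replicate 1 of day 0. The small counts moved further: the 2 lower in day 1 controls ran from 0 without replicate 2 or 3 of day 0 to 7 without replicate 1, and were 1 without replicate 1, 3 or 4 of their own group. The 2 members higher in day 6 controls became 0 without replicate 2 or 3 of day 0 and 1 without replicate 4 or 5 of the day 6 controls. The 3 lower with selenite at day 6 became 10 without replicate 1 of day 0, 0 without its replicate 2 or 3, and 1 without replicate 4 of selenite day 6.

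**Figure D3:**
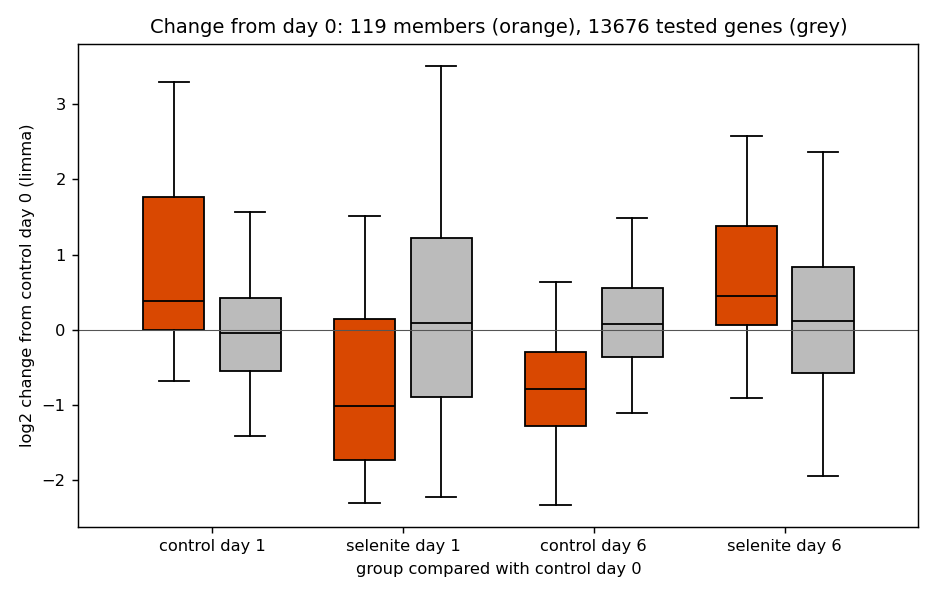
Fitted log2 change from the day 0 controls in the 4 later groups, for the 119 members beside all 13676 tested genes. The members' medians run 0.38, −1.01, −0.79 and 0.45, against −0.04, 0.09, 0.08 and 0.12 for all genes. The scaling holds the medians of all genes near 0.

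Genes that met only 1 of the conditions had other values against day 0. The 2410 other tested genes lowered at day 1 had medians of 0.10 in controls and −1.57 with selenite at day 1, then −0.08 in controls and −0.83 with selenite at day 6. Of them 19.2% were called lower in day 6 controls, against 45.4% of members, and 49.8% were still called lower with selenite at day 6, against 2.52% of members. The 2371 other tested genes raised at day 6 were already higher with selenite at day 1, with a median of 2.0 and 73.2% called higher, and had a median of 1.64 at day 6; 11.3% were called lower in day 6 controls. These shares follow in part from how the 3 groups of genes were defined, and no test was made of their differences.

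The members divide by what the controls did in the first day. The 42 called higher in day 1 controls had a median level of 7.47 scaled CPM at day 0. Their medians at day 1 were 31.9 in controls and 8.54 with selenite. At day 6 their medians were 5.79 in controls and 28.5 with selenite. The rise in controls is fixed by this division, and the medians are each over genes and not of 1 gene. The other 77 had a higher median at the start, 159 scaled CPM on day 0, then 152 in day 1 controls and 41.1 with selenite at day 1. At day 6 they had 51.9 in controls and 123 with selenite. Neither part is uniform in level. The 42 include CC84DRAFT_1257628, at 205 to 211 scaled CPM on day 0, and the 77 include CC84DRAFT_1107989, at 0 to 1.34. This division uses the same libraries as the rule and is a description.

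**Figure D4:**
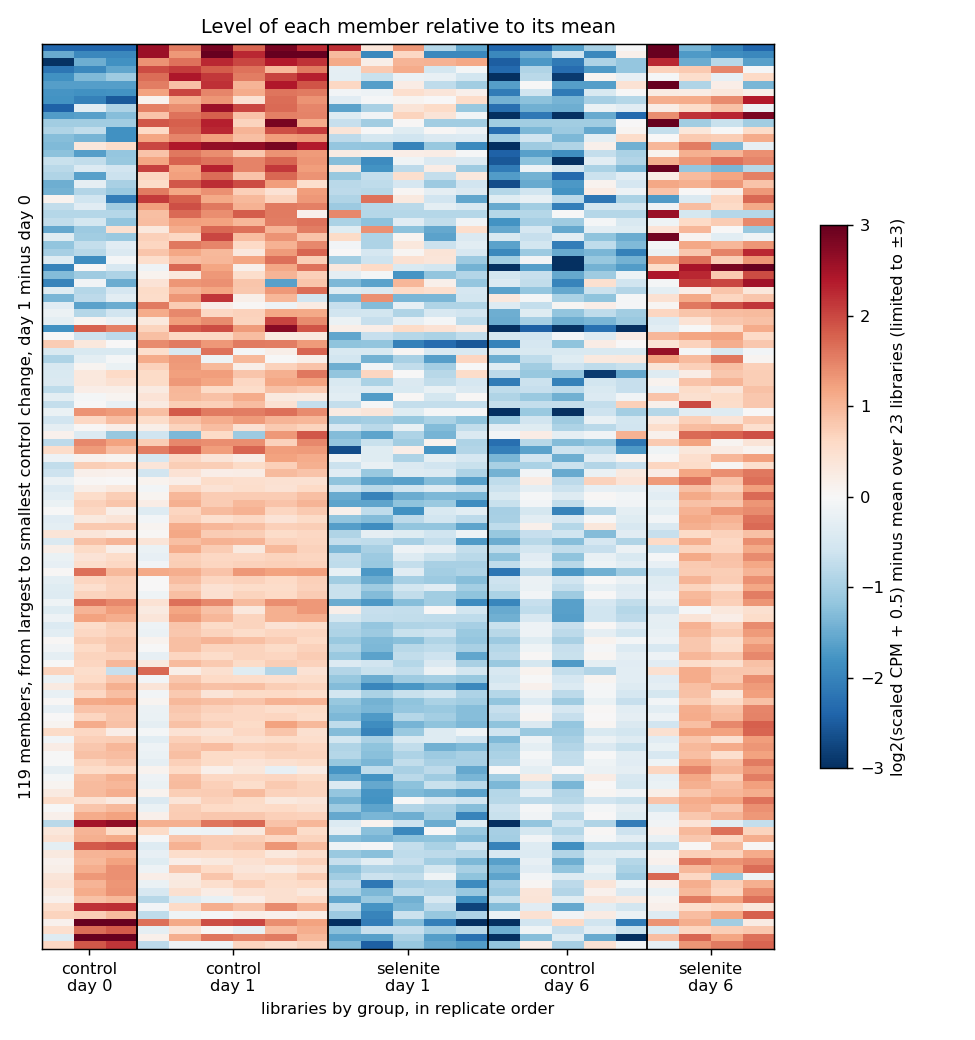
Log2 level of each of the 119 members in each library, relative to the member's mean over all 23 libraries, with members ordered by the change of the controls from day 0 to day 1. At the top lie members that rose in day 1 controls and are low at day 0, and at the bottom members that are high at day 0 and low with selenite at day 1 and in day 6 controls.

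Several abundant members held their level through day 1 without selenite and were then low with selenite at day 1 and in the controls of day 6. CC84DRAFT_635293, on scaffold NW_017253363.1 (1527751 to 1528707, plus strand) with 4 exons and log2 changes with selenite of −2.68 at day 1 and 1.81 at day 6, had 741, 2442 and 2192 scaled CPM in the 3 libraries of day 0 and 1080.3 to 2510.2 (median 2038) in day 1 controls. Selenite libraries of day 1 had 288, 245, 334, 391 and 219. At day 6 the controls had 208, 496, 261, 567 and 482 and the selenite libraries 666, 1661, 1323 and 2012. Every selenite library of day 1 and every control of day 6 lay below all libraries of the other groups. Against day 0 it fell by 2.45 ± 0.402 on the log2 scale (SE, limma adjusted p 1.03e-05) with selenite at day 1 and by 2.08 ± 0.402 on the log2 scale (SE, limma adjusted p 0.001) in controls at day 6. Its change in day 1 controls was 0.21 ± 0.389 (SE, limma adjusted p 0.746), and with selenite at day 6 it was −0.27 ± 0.420 (SE, limma adjusted p 0.63).

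CC84DRAFT_1083277, on scaffold NW_017253361.1 (4792244 to 4793043, minus strand) with 3 exons and log2 changes with selenite of −1.73 at day 1 and 1.92 at day 6, had the same course at a lower level. It had 107, 266 and 291 scaled CPM at day 0, 188 to 295 (median 251) in day 1 controls and 87.6, 84.5, 71.97, 87.8 and 44.1 with selenite at day 1. At day 6 it had 51.1, 80.9, 59.1, 102 and 77.2 in controls and 219, 306, 223 and 376 with selenite. Selenite libraries of day 1 and controls of day 6 overlapped each other and lay below every library of the remaining groups. The falls against day 0 were 1.46 ± 0.290 on the log2 scale (SE, limma adjusted p 0.000114) with selenite at day 1 and 1.48 ± 0.290 on the log2 scale (SE, limma adjusted p 0.00112) in controls at day 6.

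CC84DRAFT_1166345, on scaffold NW_017253366.1 (2268953 to 2270442, plus strand) with 4 exons and log2 changes with selenite of −1.64 at day 1 and 1.17 at day 6, had 706 to 1804 scaled CPM at day 0, 1013 to 1894 (median 1608) in day 1 controls and 545, 475, 464, 462 and 459 with selenite at day 1. It then had 286, 558, 247, 515 and 450.4 in controls and 647, 1019, 891 and 1151 with selenite at day 6. The change from day 0 was −1.42 ± 0.307 (SE, limma adjusted p 0.000298) with selenite at day 1 and −1.72 ± 0.307 (SE, limma adjusted p 0.000519) in controls at day 6, and −0.50 ± 0.322 (SE, limma adjusted p 0.218) with selenite at day 6. CC84DRAFT_1256259, on scaffold NW_017253361.1 (3300965 to 3302197, plus strand) with 4 exons and log2 changes with selenite of −1.59 at day 1 and 1.03 at day 6, fell against day 0 by 1.63 ± 0.318 on the log2 scale (SE, limma adjusted p 9.69e-05) with selenite at day 1 and by 1.02 ± 0.318 on the log2 scale (SE, limma adjusted p 0.0248) in day 6 controls. The latter call was lost without replicate 2 of day 0, at −0.88 (limma adjusted p 0.132), and without replicate 3, at −0.85 (limma adjusted p 0.143). It was also lost without replicate 1 of the day 6 controls, at −0.88 (limma adjusted p 0.0635), and without replicate 3, at −0.94 (limma adjusted p 0.0581). It was lost as well with library size alone or with the compared groups fitted alone. At day 6 CC84DRAFT_1256259 had 312, 580.2, 363, 605 and 490.4 scaled CPM in controls and 438, 1144, 859 and 1412 with selenite, and the groups overlapped.

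CC84DRAFT_1193472, on scaffold NW_017253361.1 (1663828 to 1665780, plus strand) with 2 exons and log2 changes with selenite of −2.01 at day 1 and 1.69 at day 6, had 159 ± 53.7 scaled CPM at day 0 (SD, n = 3), 159 ± 47.2 in day 1 controls (n = 6) and 38.8 ± 10.9 with selenite (n = 5). Its fall with selenite at day 1 was 2.0 ± 0.401 on the log2 scale (SE, limma adjusted p 0.000128). The change in day 6 controls was −1.33 ± 0.401 (SE, limma adjusted p 0.0209). That call was lost without replicate 2 of day 0, at −1.12 (limma adjusted p 0.129), without its replicate 3, at −1.23 (limma adjusted p 0.0998), and without replicate 1 or 3 of the day 6 controls, at −1.18 (limma adjusted p 0.0526) and −1.20 (limma adjusted p 0.0531). CC84DRAFT_1168242, on scaffold NW_017253370.1 (857603 to 858952, minus strand) with 1 exon and log2 changes with selenite of −1.88 at day 1 and 2.12 at day 6, had 7.67, 37.6 and 31.7 scaled CPM at day 0, 5.77, 8.30, 6.33, 14.7 and 6.94 with selenite at day 1 and 2.42, 7.46, 5.23, 5.73 and 2.67 in controls at day 6. Its selenite libraries of day 6 had 23.9, 31.96, 14.5 and 17.9, within the range of day 0. Its log2 change from day 0 was −1.36 ± 0.420 (SE, limma adjusted p 0.00727) with selenite at day 1. Without replicate 2 or 3 of day 0 that value was −0.95 (limma adjusted p 0.0874) and −1.07 (limma adjusted p 0.0622), and without replicate 1 it was −2.06 (limma adjusted p 9.54e-05). In day 6 controls the change was −2.16 ± 0.420 (SE, limma adjusted p 0.00106), and −2.86 (limma adjusted p 1.84e-05) without replicate 1 of day 0.

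Another set was scarce at the start, rose in controls by day 1 and was back near the start in controls by day 6, while selenite cultures were near the start at day 1 and above it at day 6. CC84DRAFT_1180836, on scaffold NW_017253372.1 (384637 to 385524, plus strand) with 2 exons and log2 changes with selenite of −2.27 at day 1 and 2.05 at day 6, had 4.79, 11.6 and 6.995 scaled CPM at day 0 and 20.4 to 67.5 (median 43.7) in day 1 controls. Its selenite libraries of day 1 had 7.89, 8.08, 9.88, 6.38 and 9.42. At day 6 the controls had 1.81, 4.64, 3.91, 15.4 and 9.85 and the selenite libraries 32.4, 30.2, 35.5 and 26.1. The levels at day 0, with selenite at day 1 and in day 6 controls overlapped, and day 1 controls and selenite day 6 lay above all of them. The rise from day 0 was 2.30 ± 0.441 (SE, limma adjusted p 0.000335) in day 1 controls and 2.0 ± 0.476 (SE, limma adjusted p 0.00144) with selenite at day 6. The change with selenite at day 1 was 0.16 ± 0.455 (SE, limma adjusted p 0.779).

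CC84DRAFT_889097, on scaffold NW_017253366.1 (1994215 to 1996389, minus strand) with 3 exons and log2 changes with selenite of −2.18 at day 1 and 1.74 at day 6, had 30.7, 40.6 and 24.8 scaled CPM at day 0, 106 to 197 (median 149.9) in day 1 controls and 23.9, 28.6, 29.1, 41.8 and 36.9 with selenite at day 1. After 6 days it had 17.6, 24.9, 11.9, 34.9 and 34.7 in controls and 46.5, 98.8, 78.5 and 113 with selenite. Both the day 1 controls and the selenite libraries of day 6 lay wholly above day 0, and selenite libraries of day 1 overlapped day 0. The changes from day 0 were 2.18 ± 0.297 (SE, limma adjusted p 6.30e-06) in day 1 controls and 1.33 ± 0.320 (SE, limma adjusted p 0.0016) with selenite at day 6. CC84DRAFT_1087626, on scaffold NW_017253362.1 (1280854 to 1283625, plus strand) with 2 exons and log2 changes with selenite of −2.24 at day 1 and 2.65 at day 6, had 5.92, 5.59 and 4.10 scaled CPM at day 0, 22.4 to 34.1 (median 29.5) in day 1 controls and 20.9, 24.7, 30.6 and 27.3 with selenite at day 6. Its selenite libraries of day 1 (2.24 to 8.77) and day 6 controls (0.771 to 7.56) overlapped day 0. The rises were 2.37 ± 0.434 (SE, limma adjusted p 0.000208) in day 1 controls and 2.21 ± 0.468 (SE, limma adjusted p 0.000473) with selenite at day 6.

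Among the abundant members, CC84DRAFT_1257628 and CC84DRAFT_1157672 were above day 0 in all day 1 libraries, with and without selenite. CC84DRAFT_1257628, on scaffold NW_017253362.1 (2757134 to 2759478, minus strand) with 2 exons and log2 changes with selenite of −1.35 at day 1 and 1.06 at day 6, had 211, 205 and 207 scaled CPM at day 0, 1561 to 2921 (median 2076) in day 1 controls and 680.0, 647, 1025, 934 and 801 with selenite at day 1. Its levels at day 6 were 169, 475, 165, 530.4 and 720.3 in controls and 860.0, 847, 911 and 817 with selenite. Selenite libraries of day 1 thus lay below the controls of that day and above all of day 0, at 1.95 ± 0.356 (SE, limma adjusted p 4.08e-05) against day 0. CC84DRAFT_1157672, on scaffold NW_017253375.1 (74139 to 75863, plus strand) with 3 exons and log2 changes with selenite of −2.42 at day 1 and 1.13 at day 6, had 144, 204 and 244 scaled CPM at day 0, 1478 to 2751 (median 2162) in day 1 controls and 419, 321, 451, 439 and 351 with selenite at day 1, the last at 1.03 ± 0.489 (SE, limma adjusted p 0.0734) against day 0, which did not pass the threshold. It had 63.1, 293, 68.9, 541 and 428 in controls and 496, 737, 432 and 773 with selenite at day 6, where the groups overlapped. Its rise over day 0 with selenite at day 6 was 1.61 ± 0.511 (SE, limma adjusted p 0.0132), and 1.40 (limma adjusted p 0.0604) without replicate 1 of day 0.

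The members that stood highest above day 0 with selenite at day 6 were CC84DRAFT_53426, CC84DRAFT_1090414 and CC84DRAFT_1219326. They were named for the size of that change, so its p-values are a description and no test. CC84DRAFT_53426, on scaffold NW_017253360.1 (1809126 to 1810659, minus strand) with 3 exons and log2 changes with selenite of −1.25 at day 1 and 4.61 at day 6, had 6.37, 6.59 and 8.53 scaled CPM at day 0, 39.1 to 76.3 (median 61.8) in day 1 controls and 16.3, 20.05, 34.7, 28.4 and 20.4 with selenite at day 1. At day 6 it had 2.01, 4.50, 1.35, 7.18 and 3.85 in controls and 57.2, 98.2, 106 and 155 with selenite. It rose over day 0 by 2.89 ± 0.355 (SE, limma adjusted p 1.57e-06) in day 1 controls and 1.63 ± 0.367 (SE, limma adjusted p 0.000439) with selenite at day 1, and by 3.70 ± 0.383 (SE, limma adjusted p 2.90e-08) with selenite at day 6. So its level with selenite at day 1 was below that of the controls and above that of day 0, and no libraries of the 3 groups overlapped. With library size alone, its call for selenite at day 1 against day 0 was lost.

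CC84DRAFT_1090414, on scaffold NW_017253364.1 (1947367 to 1949491, minus strand) with 4 exons and log2 changes with selenite of −1.0 at day 1 and 2.77 at day 6, was above day 0 in all later groups. It had 12.98, 11.02 and 7.76 scaled CPM at day 0, 50.5 to 149 (median 107) in day 1 controls and 36.9, 45.3, 48.98, 47.2 and 68.2 with selenite at day 1, and the last 2 groups overlapped. After 6 days it had 17.2, 19.4, 17.5, 22.9 and 25.7 in controls and 100.1, 101, 124 and 244 with selenite. Replicate 4 of selenite day 6 lay above the other 3. The change from day 0 was 3.61 ± 0.321 (SE, limma adjusted p 2.23e-09) with selenite at day 6 and 0.94 ± 0.307 (SE, limma adjusted p 0.0319) in controls. The latter was lost without replicate 2 or 3 of day 0, at 0.98 (limma adjusted p 0.0881) and 0.74 (limma adjusted p 0.187), and without replicate 4 or 5 of the day 6 controls, at 0.89 (limma adjusted p 0.0531) and 0.85 (limma adjusted p 0.0643). It was also lost with edgeR, with limma-voom, without the filter and with the replicate number as a block. The only other member called higher in day 6 controls, CC84DRAFT_1264311, named after its values were seen, had 0.95 ± 0.287 (SE, limma adjusted p 0.0202). That call was lost without replicate 2 or 3 of day 0, at 1.0 (limma adjusted p 0.0615) and 0.79 (limma adjusted p 0.133), and also with limma-voom and with the compared groups fitted alone.

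CC84DRAFT_1219326, on scaffold NW_017253366.1 (1909985 to 1912323, plus strand) with 2 exons and log2 changes with selenite of −1.24 at day 1 and 4.90 at day 6, had the widest spread of those members. It had 3.73, 16.6 and 11.7 scaled CPM at day 0, 14.8 to 55.4 (median 37.8) in day 1 controls and 20.7, 25.4, 11.9, 11.1 and 5.85 with selenite at day 1, with overlap between all 3 groups. Its levels at day 6 were 1.38, 4.94, 0.991, 5.90 and 4.82 in controls and 24.3, 93.7, 123 and 247 with selenite. The change from day 0 with selenite at day 6 was 3.26 ± 0.657 (SE, limma adjusted p 0.000277). It was 2.67 (limma adjusted p 0.00463) without replicate 1 of day 0 and 3.89 (limma adjusted p 2.45e-05) without replicate 1 of selenite day 6. The rise in day 1 controls, 1.78 ± 0.608 (SE, limma adjusted p 0.0305), was lost without replicate 1 of day 0, at 1.18 (limma adjusted p 0.225). It was also lost without replicate 3 of day 0, at 1.95 (limma adjusted p 0.0531), and without replicate 2, 3 or 6 of its own group, at 1.62 (limma adjusted p 0.0629), 1.73 (limma adjusted p 0.0505) and 1.64 (limma adjusted p 0.0564). Library size alone and a fit without the filter ended it too.

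**Figure D5:**
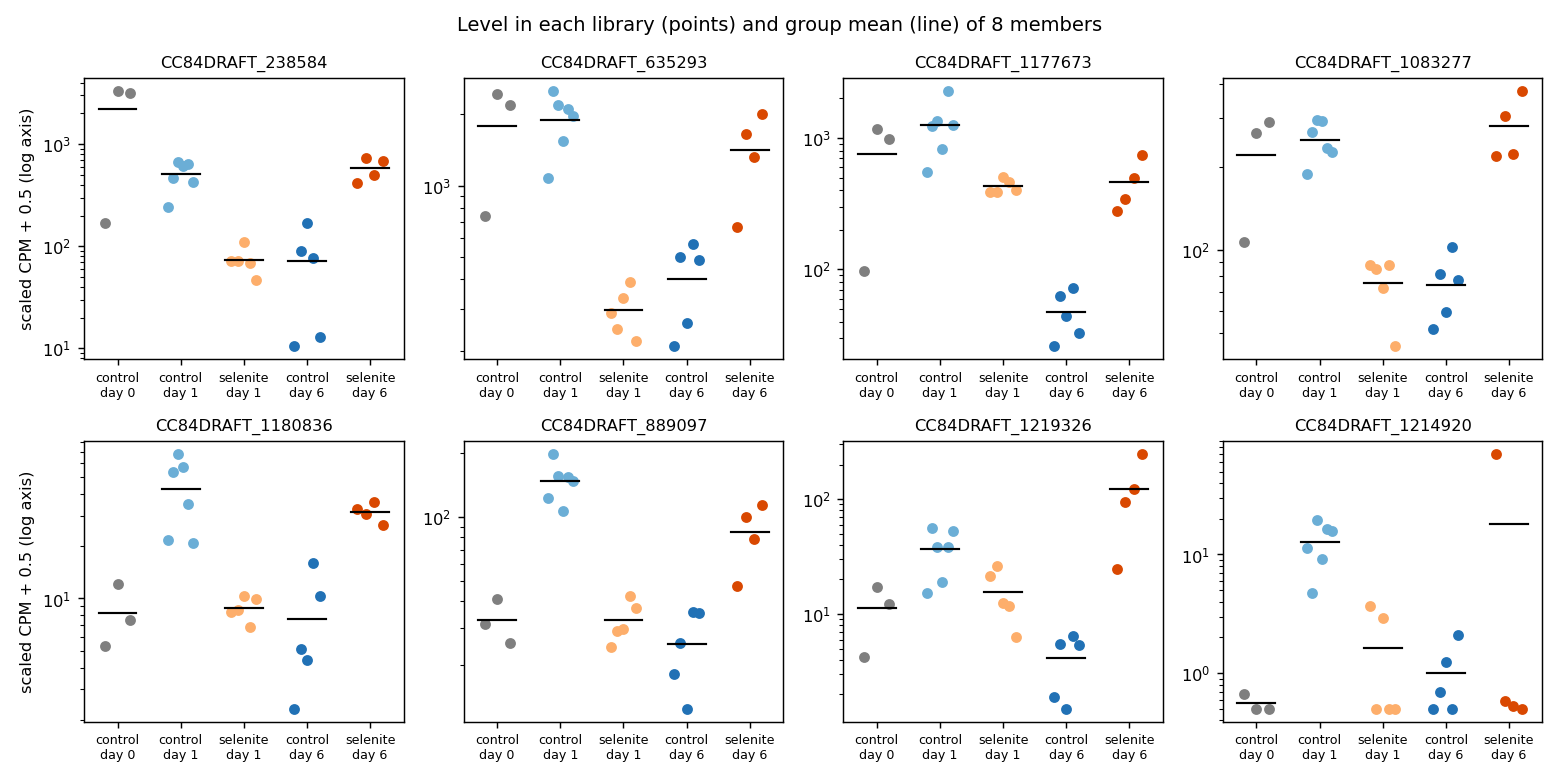
Scaled CPM plus 0.5 (log axis) of 8 members in each of the 23 libraries by group, with points for libraries and a line for the group mean. CC84DRAFT_1214920 is high in 1 library of selenite day 6, and CC84DRAFT_238584 and CC84DRAFT_1177673 are low in replicate 1 of day 0.

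Some members were far higher in replicates 2 and 3 of day 0 than in its replicate 1. With selenite at day 6 the group mean of these members was above the controls of that day, and all its libraries lay below those replicates. CC84DRAFT_238584, on scaffold NW_017253369.1 (1335909 to 1336733, plus strand) with 2 exons and log2 changes with selenite of −2.78 at day 1 and 3.02 at day 6, had 167, 3299 and 3183 scaled CPM at day 0, so replicate 1 lay far below the other 2. It had 242 to 667 (median 540.4) in day 1 controls and 72.1, 70.8, 111, 68.7 and 46.1 with selenite at day 1, and at day 6 it had 9.996, 90.00, 167, 76.5 and 12.5 in controls and 413, 734, 494 and 683 with selenite. The groups did not overlap on either day. All selenite libraries of day 6 lay above replicate 1 of day 0 and below its replicates 2 and 3. Its change from day 0 was −4.08 ± 0.778 (SE, limma adjusted p 7.14e-05) with selenite at day 1 and −4.79 ± 0.778 (SE, limma adjusted p 0.000212) in day 6 controls. Without replicate 1 of day 0 these became −5.50 (limma adjusted p 3.10e-07) and −6.21 (limma adjusted p 8.14e-07). Without replicate 2 they were −3.35 (limma adjusted p 0.00196) and −4.06 (limma adjusted p 0.00607), and without replicate 3 −3.38 (limma adjusted p 0.00188) and −4.09 (limma adjusted p 0.00569).

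CC84DRAFT_1177673, on scaffold NW_017253366.1 (879445 to 881128, minus strand) with 2 exons and log2 changes with selenite of −1.54 at day 1 and 3.29 at day 6, differed from CC84DRAFT_238584 at day 1. It had 97.5, 1171 and 980.2 scaled CPM at day 0, 547 to 2269.5 (median 1246) in day 1 controls and 387, 390.3, 507, 459.6 and 403 with selenite at day 1. At day 6 it had 25.5, 61.96, 43.5, 71.9 and 32.3 in controls and 276, 342, 495 and 743 with selenite. The day 6 controls lay below all other libraries, and the selenite libraries of both days lay within the range of day 0. Its highest library was a control of day 1, above replicates 2 and 3 of day 0. Against day 0 it fell by 3.45 ± 0.546 on the log2 scale (SE, limma adjusted p 0.000176) in day 6 controls. Its value with selenite at day 1 was −0.18 ± 0.546 (SE, limma adjusted p 0.8). That value depends on replicate 1 of day 0, as all selenite libraries of day 1 lay above it and below replicates 2 and 3. The log2 change in day 6 controls was −4.60 (limma adjusted p 4.25e-08) without replicate 1 of day 0 and −2.81 (limma adjusted p 0.00527) without replicate 2.

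The 3 members called lower than day 0 with selenite at day 6 were CC84DRAFT_884580, CC84DRAFT_1222719 and CC84DRAFT_1165365. They too were named for that change, so its p-values are a description and no test. CC84DRAFT_884580, on scaffold NW_017253366.1 (1784722 to 1785829, plus strand) with 1 exon and log2 changes with selenite of −3.84 at day 1 and 1.33 at day 6, had 16.3, 196 and 217 scaled CPM at day 0, 33.7 to 61.2 (median 44.3) in day 1 controls and 0.824, 3.14, 5.78, 3.24 and 0.891 with selenite at day 1, the lowest of these groups. After 6 days it had 0.867, 9.83, 22.7, 9.67 and 3.19 in controls and 38.96, 32.3, 6.97 and 17.7 with selenite, with overlap. Its change from day 0 was −5.03 ± 0.771 (SE, limma adjusted p 4.19e-06) with selenite at day 1 and −2.13 ± 0.807 (SE, limma adjusted p 0.0363) at day 6. In day 6 controls it was −3.77 ± 0.771 (SE, limma adjusted p 0.00155). Replicate 1 of day 0 was far below its fellows, and without it the 3 values were −6.23 (limma adjusted p 1.74e-07), −3.34 (limma adjusted p 0.0014) and −4.98 (limma adjusted p 5.14e-05). Without replicate 3 of day 0 they were −4.38 (limma adjusted p 0.000151), −1.49 (limma adjusted p 0.209) and −3.13 (limma adjusted p 0.0274). The call at day 6 with selenite was also lost without replicate 2 of day 0, at −1.56 (limma adjusted p 0.19), and without replicate 3 or 4 of its own group, at −1.64 (limma adjusted p 0.13) and −2.07 (limma adjusted p 0.0668). Both day 6 calls were lost with the compared groups fitted alone, and that with selenite also without the filter or with a pseudocount of 0.1.

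CC84DRAFT_1222719, on scaffold NW_017253373.1 (465923 to 467467, minus strand) with 4 exons and log2 changes with selenite of −1.72 at day 1 and 1.23 at day 6, had 68.3, 681 and 760.5 scaled CPM at day 0, 217 to 393 (median 249.6) in day 1 controls and 89.5, 128, 77.6, 42.02 and 93.2 with selenite at day 1. Its levels at day 6 were 11.2, 52.04, 78.6, 63.3 and 27.9 in controls and 112, 159, 96.2 and 72.96 with selenite. All selenite libraries of day 1 lay below the controls, and the groups of day 6 overlapped. The change from day 0 was −2.01 ± 0.581 (SE, limma adjusted p 0.00432) with selenite at day 1, −1.63 ± 0.608 (SE, limma adjusted p 0.0333) with selenite at day 6 and −3.08 ± 0.581 (SE, limma adjusted p 0.000807) in day 6 controls. Without replicate 1 of day 0 these were −3.14 (limma adjusted p 7.11e-06), −2.76 (limma adjusted p 0.000124) and −4.21 (limma adjusted p 1.68e-06). Both calls with selenite were lost without replicate 2 of day 0, at −1.49 (limma adjusted p 0.0538) and −1.11 (limma adjusted p 0.209). Without replicate 3 they were lost too, at −1.41 (limma adjusted p 0.0622) and −1.03 (limma adjusted p 0.237), and the controls had −2.48 (limma adjusted p 0.0176). The call at day 6 was also lost without replicate 1, 3 or 4 of its own group, at −1.66 (limma adjusted p 0.0517), −1.59 (limma adjusted p 0.0644) and −1.46 (limma adjusted p 0.0842). Fitting the compared groups alone ended both calls of day 6, and leaving off the filter ended that with selenite.

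CC84DRAFT_1165365, on scaffold NW_017253365.1 (1919959 to 1921991, plus strand) with 4 exons and log2 changes with selenite of −2.21 at day 1 and 1.13 at day 6, had 19.3, 63.2 and 63.7 scaled CPM at day 0, 12.7 to 36.7 (median 26.6) in day 1 controls and 7.82, 3.59, 4.998, 7.54 and 1.53 with selenite at day 1. At day 6 it had 5.15, 10.5, 4.27, 10.8 and 9.03 in controls and 14.9, 19.2, 20.9 and 16.8 with selenite, and no libraries overlapped between selenite and control on either day. It fell from day 0 by 3.12 ± 0.434 on the log2 scale (SE, limma adjusted p 1.01e-06) with selenite at day 1 and by 2.44 ± 0.434 on the log2 scale (SE, limma adjusted p 0.000475) in day 6 controls. Its change with selenite at day 6 was −1.24 ± 0.454 (SE, limma adjusted p 0.0304), and the call was lost without replicate 2 or 3 of day 0, at −0.96 (limma adjusted p 0.156) and −0.96 (limma adjusted p 0.157). It was also lost without replicate 1 or 4 of selenite day 6, at −1.16 (limma adjusted p 0.0668) and −1.21 (limma adjusted p 0.0567). The 2 members called lower than day 0 in day 1 controls, CC84DRAFT_1161469 and CC84DRAFT_1188849, were named after their values were seen. CC84DRAFT_1161469 had 193 ± 89.96 scaled CPM at day 0 and 70.3 ± 25.7 in those controls, a log2 change of −1.41 ± 0.432 (SE, limma adjusted p 0.016). CC84DRAFT_1188849 had 56.6 ± 23.97 and 27.5 ± 11.5, a change of −1.02 ± 0.348 (SE, limma adjusted p 0.0301). Without replicates 2 and 3 of day 0 in turn, the first call was lost at −1.25 (limma adjusted p 0.0816) and −1.11 (limma adjusted p 0.115), and the second at −0.85 (limma adjusted p 0.145) and −0.77 (limma adjusted p 0.182). The second was also lost without replicate 1, 3 or 4 of the day 1 controls, at −0.90 (limma adjusted p 0.0546), −0.96 (limma adjusted p 0.0567) and −0.91 (limma adjusted p 0.0619), and with the compared groups fitted alone.

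For 6 members, a single selenite library of day 6, replicate 1 in each of them, lay above all 5 controls of that day. Another 9 members had 2 such libraries, 52 had 3 and 52 had all 4. Replicate 1 was the highest selenite library in 3, 1 and 4 of these members, in that order. All 4 lay above the controls for 19.0% of all tested genes, and the shares for fewer libraries were not computed. The counts come from the contrast that chose the members and are a description. CC84DRAFT_1214920, on scaffold NW_017253362.1 (1603073 to 1603615, plus strand) with 1 exon and log2 changes with selenite of −2.98 at day 1 and 4.16 at day 6, had 69.9, 0.0832, 0.0251 and 0 scaled CPM in the selenite libraries of day 6 and 0, 0.196, 0.743, 0 and 1.61 in the controls. At day 0 it had 0.173, 0 and 0, in day 1 controls 4.21 to 18.98 (median 13.03), and with selenite at day 1 3.16, 0, 2.44, 0 and 0. CC84DRAFT_1167515, on scaffold NW_017253368.1 (1570899 to 1573214, plus strand) with 3 exons and log2 changes with selenite of −2.23 at day 1 and 2.09 at day 6, had 21.3, 0.749, 0.576 and 1.06 with selenite and 0.153, 2.004, 1.38, 0.928 and 0.617 in controls at day 6. In both genes the other 3 selenite libraries lay within the range of the controls, and the difference at day 6 is that of 1 library. At day 1 all 6 controls lay above all 5 selenite libraries in both genes. In CC84DRAFT_1167515 the controls had 5.79 to 13.3 (median 9.17) and the selenite libraries 2.88, 0.299, 1.11, 2.72 and 0.827.

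The 4 others with only replicate 1 above the controls were named after their values were seen. CC84DRAFT_519668 had 90.2, 0.499, 0.150 and 0 scaled CPM with selenite at day 6 and 0, 0, 0.330, 0.819 and 2.07 in controls. CC84DRAFT_1238425 had 29.5, 0.333, 1.30 and 0.101 with selenite and 0, 1.08, 0, 0 and 1.61 in controls. In both genes the other 3 selenite libraries were within the range of the controls. CC84DRAFT_1220541 had 8.97, 0, 0.150 and 0 with selenite and 0, 0, 0, 0 and 0.529 in controls, and CC84DRAFT_1160388 had 4.92, 0.125, 0 and 0 with selenite and 0, 0, 0.386, 0 and 0 in controls. Without replicate 1 of selenite day 6, 12 of the 119 members no longer met the rule, and without replicate 4, 36 did not.

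Within groups, members were more spread than other genes in 3 of the 5 groups. The median SD of a member's log2 level was 0.48 at day 0, 0.53 in day 6 controls and 0.64 with selenite at day 6, beside 0.32, 0.40 and 0.39 over all tested genes. In day 1 controls it was 0.37 beside 0.39, and with selenite at day 1 it was 0.37 beside 0.42. Without replicate 1 the median SD of members at day 0 was 0.13, beside 0.17 for all genes. Without replicates 1 and 3 it was 0.28 in day 6 controls, beside 0.29, and without replicate 1 it was 0.28 with selenite at day 6, beside 0.31. The members' wider spread in those 3 groups was thus not seen once these libraries were left out. They were picked in view of the members' levels, so a smaller spread without them follows in part from that choice. What sets those libraries apart was not tested.

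The members were spread over 18 scaffolds and mostly stood alone. They had a median of 3 exons, beside 2 over all RefSeq genes, and 21 (17.6%) had a single exon, beside 25.9%. Their median exon length was 1225 bases, beside 1303, and 48.7% lay on the plus strand, beside 49.8%. The median distance to the outermost annotated gene of the scaffold was 584684 bases, beside 599658. Only 6 members were next to another member, as 3 divergent pairs with the left gene on the minus strand and the right gene on the plus strand: CC84DRAFT_1200839 with CC84DRAFT_1133542, CC84DRAFT_1160395 with CC84DRAFT_430264, and CC84DRAFT_1062954 with CC84DRAFT_634279. In the last pair the changes with selenite were −3.19 and −1.90 at day 1 and 1.27 and 1.53 at day 6, and in the middle pair −1.90 and −2.28, then 1.96 and 1.37. The share that pairs would have among other genes was not computed.

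CC84DRAFT_1200839 lies on the minus strand of NW_017253360.1 (1312738 to 1313878) with 2 exons, and CC84DRAFT_1133542 on the plus strand (1314020 to 1315585) with 3. CC84DRAFT_1200839 had 45.3, 88.1 and 87.3 scaled CPM at day 0, 92.99 to 153 (median 124) in day 1 controls and 58.5, 58.9, 55.9, 65.9 and 56.8 with selenite at day 1. After 6 days it had 44.98, 47.7, 44.6, 55.5 and 47.1 in controls and 69.7, 112, 99.3 and 142 with selenite, and the groups overlapped on neither day. CC84DRAFT_1133542 had 133, 279.8 and 286 at day 0, 159 to 328 (median 272) in day 1 controls and 110.2, 70.6, 104, 84.3 and 75.1 with selenite at day 1. It had 89.97, 166, 83.7, 176 and 139 in controls and 158, 345, 296 and 507 with selenite at day 6, where the groups overlapped. CC84DRAFT_1200839 rose by 0.80 ± 0.209 (SE, limma adjusted p 0.0053) in day 1 controls, a call lost at 0.49 (limma adjusted p 0.0978) without replicate 1 of day 0, and had −0.25 ± 0.216 (SE, limma adjusted p 0.328) with selenite at day 1. CC84DRAFT_1133542 had 0.22 ± 0.312 (SE, limma adjusted p 0.664) in day 1 controls and fell by 1.32 ± 0.322 on the log2 scale (SE, limma adjusted p 0.000995) with selenite at day 1. The rise of CC84DRAFT_1200839 was also lost with library size alone as the scaling. The difference between the 2 genes was not tested.

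Genes beside the members were examined because the rule did not choose them. Of 231 neighbouring genes that were not members, 212 were tested. With selenite at day 1, 62 (29.2%) were called higher than controls and 65 (30.7%) lower, beside 34.3% and 27.7% of all tested genes, with a median log2 change of −0.01 against 0.11 over all genes. At day 6, 68 (32.1%) were called higher and 42 (19.8%) lower, beside 25.4% and 22.6%, with medians of 0.15 and 0.08. When single libraries of day 6 were left out, 56 to 63 neighbours were higher and 38 to 43 lower. Over all tested genes, the 3473 higher then became 3084 to 3411, and the 3088 lower became 2732 to 3068. The differences from the background were not tested.

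At day 1 all selenite libraries lay below all controls for 92 of the 119 members, beside 18.0% of all tested genes, and at day 6 all selenite libraries lay above all controls for 52, beside 19.0%. Both counts come from the contrasts that chose the members, so nothing is read from them beyond how many rest on separated groups. The authors' deposited table for day 1 lists 117 members, and 111 of them are lower at an adjusted p under 0.05, beside 30.4% of the genes in that table; its median log2 fold change for members is −1.69. The authors' deposited table for day 6 lists 115 members, of which 103 are higher, beside 24.5%, with a median of 1.42. These tables were made from the same libraries and are no independent evidence.

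The authors' deposited time-course table lists 4611 genes, 30.4% of all 15164, and 80 of the 119 members. In its division into 9 clusters, 42 of these 80 members are in cluster 7 (52.5%), which holds 8.89% of the listed genes, and 26 are in cluster 4 (32.5%), which holds 13%. A further 7 members are in cluster 1, 4 in cluster 6 and 1 in cluster 8. Among the genes described above, the authors' deposited table puts CC84DRAFT_635293, CC84DRAFT_1083277, CC84DRAFT_1193472 and CC84DRAFT_1256259 in cluster 7, and CC84DRAFT_1180836, CC84DRAFT_889097, CC84DRAFT_1087626, CC84DRAFT_1257628 and CC84DRAFT_1157672 in cluster 4. It puts CC84DRAFT_238584, CC84DRAFT_884580, CC84DRAFT_1222719 and CC84DRAFT_1165365 in cluster 6, and CC84DRAFT_53426, CC84DRAFT_1090414 and CC84DRAFT_1219326 in cluster 1. The clusters were made from the same libraries, so they describe the courses given above in another form.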

How the data were processed

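Messenger RNA of whole cultures was sequenced in 23 libraries, grouped by the titles in the labels, with 23282564 to 32681888 reads in genes. Per the submitters' processing notes, reads were handled with Trimmomatic 0.39 and STAR 2.7.1a, then with featureCounts (Subread 2.0.6), and edgeR 3.36.0 was run under R 4.1.0. A build was not given in the sources used here. Counting used strand option 2, per the file headers. The deposited CPM table was used. The authors made it by dividing each gene's reads by the library's total, judging from its values: 100.0% of 348772 CPM values were whole multiples of 1 read to within 1e-06 reads. The 23 columns of the deposited count table were not used, only its gene positions and exon lengths. The deposited tables of day 1 and day 6 also hold the authors' p-values, log2 fold changes and F statistics, the last a score. Their maSigPro table, per the file headers, holds p-values, R-squared and cluster numbers (each read as a score) and CPM on another total that was not used.

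CPM was divided by median-ratio factors of 0.513 to 1.605. Under R 4.3.3, limma 3.58.1 with its variance trend tested log2(scaled CPM + 0.5), over 13676 genes kept by filterByExpr (minimum count 10, minimum total 15) in 23 libraries with 5 group means and no block. They were two-sided, with Benjamini-Hochberg adjustment and a threshold of 0.05. Log2 changes on this scale understate changes of genes with few reads. Figures and summaries used Python 3.11.15, pandas 2.3.3, numpy 2.4.6 and matplotlib 3.10.9. Alternatives included edgeR 4.0.16 and DESeq2 1.42.0 on the recovered reads, and scripts were tested on simulated data. The floor of 3 reads covers counting error only, and reads without molecular identifiers are not independent molecules.

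The members, the gene rules and the alternatives were chosen with earlier results of these data known. Genes named were the 10 members with the largest smaller change of both days. They came from members whose higher group mean was at least 5 scaled CPM on each day. CC84DRAFT_1214920 and CC84DRAFT_1167515 met that at day 6 only through replicate 1 of selenite. Also named were the 6 with the highest mean, the adjacent members first by position and those nearest each limit. The 3 highest and 3 lowest with selenite at day 6 against day 0 were named too. Exceptions are said to be named after their values were seen. Promoters, proteins and product names were not analysed here.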

Additional observations from a re-analysis of the deposited data

Results flagged for a closer look

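In 14 of 136 groups of 4 to 6 libraries, 1 library lay far from the rest by Dixon's test of the gap against the range. The groups were those of days 1 and 6, for each named member and for the members' share of reads. All 14 were of named members. For normally distributed values, chance alone gives this in about 1 in 20 groups. The values here were untransformed scaled CPM, and a group with reads in only 1 library is always flagged, so that rate need not hold. In addition, 4 of the genes were named because 1 library stood out in them, so the count is no rate. Replicate 1 of selenite day 6 had 69.9 scaled CPM of CC84DRAFT_1214920, where the next library had 0.0832, and 21.3 of CC84DRAFT_1167515, where the next had 1.06. The same library had 90.2 of CC84DRAFT_519668, 29.5 of CC84DRAFT_1238425, 8.97 of CC84DRAFT_1220541 and 4.92 of CC84DRAFT_1160388, with the next at 0.499, 1.30, 0.150 and 0.125. Replicate 4 of selenite day 6 had 244 scaled CPM of CC84DRAFT_1090414, with the next at 124. Replicate 4 of selenite day 1 had 14.7 of CC84DRAFT_1168242, with the next at 8.30, and replicate 1 of that group had 545 of CC84DRAFT_1166345, with the next at 475. Replicate 4 of control day 6 had 55.5 scaled CPM of CC84DRAFT_1200839, with the next at 47.7. At low levels, CC84DRAFT_1160388 had 1.92 in replicate 1 of selenite day 1 and 0.386 in replicate 3 of control day 6, and CC84DRAFT_1220541 had 0.555 in replicate 3 of selenite day 1 and 0.529 in replicate 5 of control day 6. The cause of these values was not tested.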

How the results depend on the processing

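The number of genes meeting the rule was 119 as reported, 191 with library size alone, 21 with limits of 1.5 on the log2 scale, and 89 to 162 when each library was left out in turn. With library size alone the median of all genes moved by −0.37, −0.82, 0.18 and 0.10 (control day 1, selenite day 1, control day 6 and selenite day 6 against day 0), and by −0.42 for selenite against control at day 1. Counts of members called against day 0 moved as follows. In day 1 controls, the 2 lower became 4 with DESeq2, 14 with library size alone and 6 with the replicate number as a block. With selenite at day 1, the 9 higher became 4 with library size alone. In day 6 controls, the 2 higher became 6 with DESeq2, 1 with edgeR, 0 with limma-voom, 1 without the filter, 1 with the compared groups alone and 1 with the replicate block; the 54 lower became 33 with the compared groups alone. For selenite at day 6, the 3 lower became 7 with DESeq2, 6 with edgeR, 1 without the filter and 6 with the replicate block.

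Without replicates 1 and 3 of the day 6 controls, the 2 higher and 54 lower of that group became 4 and 29, and the 3 lower with selenite at day 6 became 6. Without those libraries, replicate 1 of day 0 and replicate 1 of selenite day 6 together, a choice made after seeing the data, the 2 lower in day 1 controls became 13, the 2 higher in day 6 controls 5, and the 3 lower with selenite at day 6 became 11; the rule then gave 117 genes, 96 of them shared.

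Leaving out single libraries gave, in day 1 controls, 34 to 44 higher and 0 to 7 lower. For selenite at day 1 it gave 7 to 9 higher and 59 to 69 lower. In day 6 controls it gave 0 to 3 higher and 28 to 64 lower, and with selenite at day 6 25 to 45 higher and 0 to 10 lower. Of the neighbours of members, 62 were higher and 65 lower with selenite at day 1, and 37 and 91 with library size alone. Over all genes, 4693 higher and 3786 lower became 3146 and 5356. Leaving out the 100 genes with the most reads moved the share held by members to 3.55% at day 0, 3.72% in day 1 controls, 1.10% with selenite at day 1 and 1.91% in day 6 controls. The median SD of members fell from 0.48 to 0.133 without replicate 1 of day 0, to 0.276 without replicates 1 and 3 of control day 6, and to 0.281 without replicate 1 of selenite day 6, the last chosen after seeing the data. For the 61 called changes of named members, 1148 of 1221 alternative values stayed past the threshold in the same direction, 72 did not stay past it and 1 reversed: CC84DRAFT_1264311 with selenite at day 1 against day 0, 0.94 as reported and −0.13 with library size alone. The correlations of same-numbered deviations were not all over 0.1 in any comparison, which does not settle whether single numbers were paired. Between day 0 and day 1 controls, numbers 1, 2 and 3 had 0.33, 0.0207 and 0.0599. Between day 0 and day 6 controls they had 0.331, 0.129 and −0.209. In the other comparisons every correlation lay under 0.1. The cause of these shifts was not tested.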
